A study of Mus musculus with 30 samples.

Results

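The complement and coagulation genes described here are 36 liver-expressed genes of the blood plasma protease cascades. They were chosen by name as components and regulators of complement, clotting and fibrinolysis and not by their measured values. Earlier results of these data were known when they were chosen. All 36 were in the table of 51826 gene identifiers, and all passed the filter on low counts that left 19685 genes for testing. Their transcripts were measured by RNA-seq in 30 frozen left liver lobes of male mice of the strain labelled C57BL16. The irradiated arm had been exposed to 56Fe, an iron nucleus found in galactic cosmic rays, at a dose of 0.2 Gy and an energy of 600 MeV/n, and the control arm had no irradiation. Livers of both arms were collected at months 1, 2, 4, 9 and 12 (days 30, 60, 120, 270 and 360), with 3 biological replicates per arm and month. Each library was made from thin slices of 1 lobe, the RNA was depleted of ribosomal RNA, and between 7995248 and 20215995 counts per library were assigned to genes. Unless stated otherwise, values are CPM (read counts relative to the library total, scaled by TMM factors), given for replicates 1, 2 and 3 in turn, and log2 fold changes are irradiated over control with their standard error (SE).

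Complement is a set of plasma proteins that tag and lyse microbes. It is started by the classical pathway (antibody), the lectin pathway (microbial sugars) or the alternative pathway (spontaneous C3 cleavage), all of which converge on C3 and end in the membrane attack complex. Coagulation runs through a chain of proteases to thrombin, which makes fibrin, while anticoagulant proteins restrain it and plasmin dissolves the clot. Hepatocytes are the main source of most of these proteins, and several of them, C3 and C4 among them, are acute phase proteins whose synthesis increases in inflammation.

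The promoters of 4 members that the results below turn on are shown first. Klkb1, F13b and F9 had the smallest p-values in the test of whether the irradiation effect differed between months, and F11 is the neighbour and relative of Klkb1 with the opposite course over time. Each line holds the 250 bases before the RefSeq start (GRCm38.p6), read 5′ to 3′ on the strand of the gene, and capitals mark the motifs found. The regions are chr8:45294836-45295085 (minus strand) for Klkb1, chr8:45262032-45262281 (minus) for F11, chr1:139501457-139501706 (plus) for F13b and chrX:59999214-59999463 (plus) for F9.
Klkb1: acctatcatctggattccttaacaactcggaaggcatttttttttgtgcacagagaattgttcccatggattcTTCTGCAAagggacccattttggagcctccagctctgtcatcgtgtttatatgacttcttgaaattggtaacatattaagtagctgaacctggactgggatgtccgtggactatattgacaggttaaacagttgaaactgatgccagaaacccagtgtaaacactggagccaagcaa
F11: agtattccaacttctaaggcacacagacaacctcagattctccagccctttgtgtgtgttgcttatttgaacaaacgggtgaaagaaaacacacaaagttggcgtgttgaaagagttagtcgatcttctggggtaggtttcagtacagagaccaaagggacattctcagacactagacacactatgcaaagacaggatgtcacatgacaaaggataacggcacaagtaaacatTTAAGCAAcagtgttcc
F13b: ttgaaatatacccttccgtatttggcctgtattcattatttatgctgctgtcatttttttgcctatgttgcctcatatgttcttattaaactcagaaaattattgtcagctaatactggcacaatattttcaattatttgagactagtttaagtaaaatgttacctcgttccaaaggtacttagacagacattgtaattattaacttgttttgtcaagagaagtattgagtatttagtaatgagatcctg
F9: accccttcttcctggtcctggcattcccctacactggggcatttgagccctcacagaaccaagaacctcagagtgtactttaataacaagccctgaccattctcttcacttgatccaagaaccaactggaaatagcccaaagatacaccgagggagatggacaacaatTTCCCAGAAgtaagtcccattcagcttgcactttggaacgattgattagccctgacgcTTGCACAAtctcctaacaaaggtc
The search, on both strands, covered the letters CAAAGTCC (HNF4), TTGCNNAA (C/EBP) and TTCNNNGAA (STAT), with N for any base. The window of F13b held none of these letters. F11 held the C/EBP letters 17 to 10 bases before its start, F9 24 to 17 bases before and Klkb1 177 to 170 bases before. The STAT letters lay 82 to 74 bases before the start of F9. Of the 27 members with an entry, 5 (18.5%) held the C/EBP letters, against 9.6% of 32851 promoters of the same length. The STAT letters were in 4 (14.8%, against 7.0%) and the HNF4 letters in 0 (against 1.2%). These matches describe letters in a window and not sites in use.

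Several members are neighbours. F11 lies 4.7 kb from Klkb1 and F10 1.5 kb from F7, both pairs on chromosome 8, C8a lies 11.1 kb from C8b on chromosome 4, and Cfb and C2 are 0.1 kb apart on chromosome 17. In the annotation, exons of Klkb1, Cfb and C2 overlap predicted genes on the same strand (Gm45753 for Klkb1, Gm20547 for Cfb and C2), and STAR's gene counting leaves out a read that overlaps more than 1 gene, so the levels of these members may be understated. Exons of Masp2, Serpinc1, Plg, F5, Hc and C2 overlap genes on the opposite strand, and whether the counting used strand is not stated. C4b and Kng1 have near copies (C4a and Kng2) with which reads may be shared.

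Some features of the libraries touch the results. Gm26917, annotated as a long non-coding RNA, had a share of 3.04% to 7.57% of all counts at months 1 and 2 (12 livers) and of 0.452% to 2.04% at the later months (18 livers). Its share was 6.36% to 7.57% in irradiated livers and 3.04% to 6.09% in control livers at month 1, and 4.79% to 6.93% in irradiated and 3.32% to 4.76% in control livers at month 2. At month 4 it was 0.827% to 0.985% in irradiated and 0.469% to 0.508% in control livers, and at month 12 it was 0.759% to 1.04% in irradiated and 1.33% to 2.04% in control livers. Gm26917 in log2 CPM was later used as a covariate. Its CPM were apart between the arms at months 1, 4 and 12 and overlapped at months 2 and 9. They were also apart between control livers of months 4 and 12, and between months 1 and 2 and the later months. A fit with this covariate thus cannot tell its part from that of arm or month in the comparisons where it was apart. Clock genes differed between the arms at month 1, where 13 of 20 passed the test (3 higher and 10 lower; 4.6% of all genes). At month 2, 5 of 20 passed, all lower (4.37% of all genes, 1.8% lower), and averaged over months 14 of 20 did (5.26%). At months 4, 9 and 12 the count was 0. At month 1 the clock gene Arntl had 25.7, 25.5 and 38.5 CPM in irradiated livers, against 2.27, 1.91 and 2.44 CPM in control livers. The libraries numbered 2 of both arms stood apart from the others at months 9 and 12, and results that rest on them are also given without them. None of the 13 hepatocyte markers measured, albumin among them, was at 0 in any group, and together they summed to 40430 to 127000 CPM in irradiated livers and 59740 to 132400 CPM in control livers. In such bulk samples fewer cells of a type and less RNA per cell cannot be told apart.

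The members took 2.46% to 5.03% of the counts of a library, and C3 alone held 28.4% of them. Per kilobase of exon, C3, on which all 3 complement pathways converge, was the most abundant, at 1690 ± 608 CPM per kb (SD over 30 libraries). Next came Vtn (vitronectin, which blocks membrane attack) at 993 ± 212, Kng1 (kininogen, the source of bradykinin) at 667 ± 143 and Plg (plasminogen) at 561 ± 92.4 CPM per kb. The order within this group was clear by size for C3, 1.7-fold above Vtn, and less so for Kng1 and Plg, 1.19-fold apart and within 1 SD. From Serpinf2 (336 ± 56.2) to Mbl1 (134 ± 21.1) 17 members followed each other in steps of at most 1.2-fold, smaller than their SDs. C6, F5, C4bp, F13b and F9 lay between 101 and 79.3, C1ra, F7, Klkb1, F11 and Masp2 between 51.7 and 39.9, and Pros1 at 23.1 CPM per kb. The lowest were Masp1 at 12.3 ± 2.13, Cfp (properdin) at 10.3 ± 6.02, C2 at 5.92 ± 1.57 and Cfb (factor B) at 1.49 ± 0.452 CPM per kb. Cfb had as few as 24 counts in a library, the lowest count of any member.

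**Figure D1:**
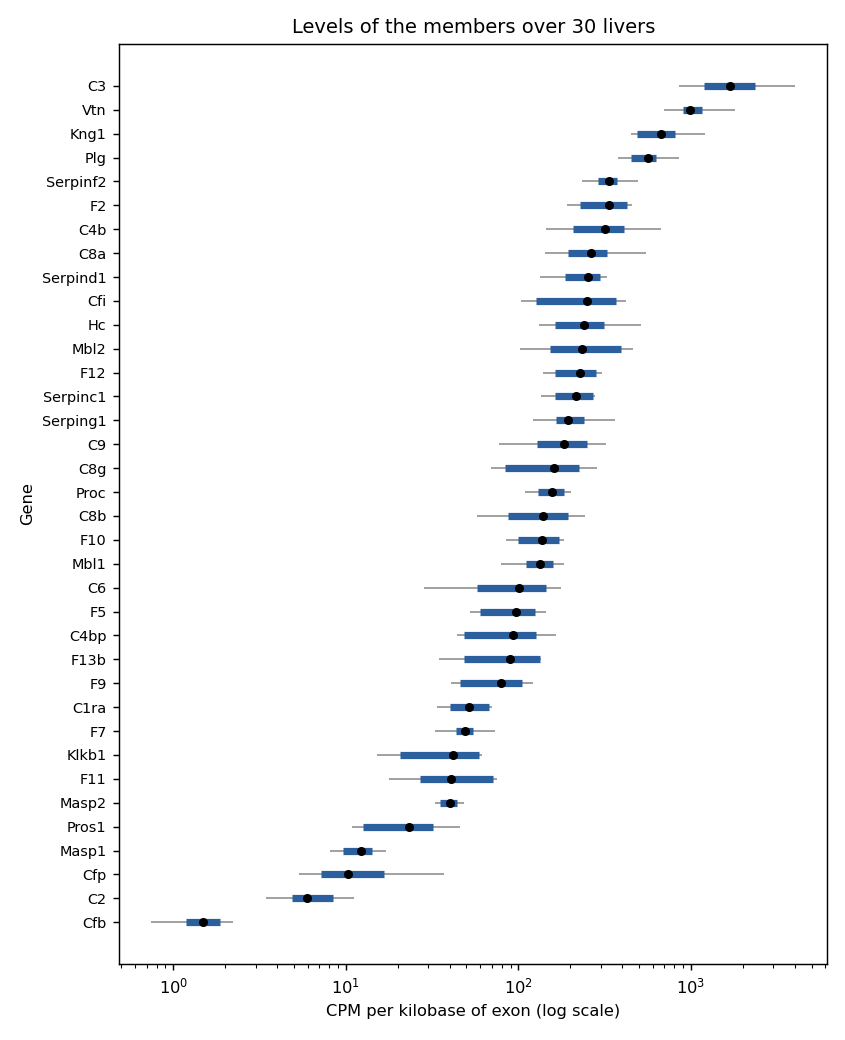
Level of each of the 36 members in CPM per kilobase of exon on a log axis, ordered by level, with a point for the mean of 30 livers, a thick bar from the lowest to the highest group mean and a thin line from the lowest to the highest liver. C3 lies highest at a mean of 1690 and Cfb lowest at 1.49 CPM per kb.

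The members also differed in how far replicates of a group lay apart. The SD as a percent of the mean, taken as the median over the 10 groups, was 4% for Masp2, 5.4% for Proc, 6.15% for Serpinc1 and 6.2% for F13b. It was 20.4% to 27.1% for C8a, C6, Hc, C3, C8b and C9, and 30.8% for Cfb. Of the 8 members above 20%, with Cfp at 23.4%, 5 were terminal components, and C8g, the third chain of C8, was lower than these at 10.9%.

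Irradiated and control livers were compared at each month to ask which of these transcripts differed after irradiation. Few did: edgeR's quasi-likelihood test with Benjamini-Hochberg adjustment over all genes called 1 member at month 1 (Klkb1, lower; 4.6% of all genes were called, 3.11% lower), 1 at month 2 (Cfi, lower; 4.37%, 2.57% higher and 1.8% lower), and 0 at months 4 (3.6%, 1.82% higher and 1.77% lower), 9 (1.66%) and 12 (0%). A share of 1 in 36 (2.8%) is below that of all genes at months 1 and 2. At an unadjusted p under 0.05 the counts were 5, 11, 4, 1 and 3 members for months 1, 2, 4, 9 and 12, and 3317, 4260, 3759, 3166 and 2648 of all 19685 genes. Months 4, 9 and 12 had 3, 0 and 0 calls by limma voom and 1, 0 and 0 by DESeq2. The shares of all genes called by limma voom and DESeq2 are not given, so those counts cannot be set against other genes. Averaged over the 5 months, Cfi was the 1 member called, again lower (5.26% of all genes).

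The direction was more uniform than the calls. At month 2 the log2 fold change was negative for 35 of 36 members, with a median of -0.31 against -0.02 over all genes tested, and Masp2 was the exception. The median was -0.10 at month 1 (all genes -0.03), -0.11 at month 4 (0.04), -0.06 at month 9 (0.00) and 0.11 at month 12 (-0.02). The sign of the month 1 median depended on the scaling, being 0.00 with upper quartile factors, where all genes had a median of 0.06. Over months 1, 2, 4, 9 and 12 the number of members with a negative value was 24, 35, 26, 23 and 12. A total of 16 members had negative values at months 1, 2 and 4 and a positive one at month 12, and 5 (C2, F2, Mbl2, Proc and Serpinc1) had negative values at all 5 months.

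At month 2 all 3 irradiated livers lay below all 3 control livers for 24 of 36 members, against 18.6% of all genes, and above them for 0 (15.6% of all genes). These 24 included all 6 clotting proteases and cofactors, all 4 complement regulators, 5 of 6 terminal components and both fibrinolysis genes, but only 1 of 4 anticoagulants. At month 4 the count was 10 members below (15.9% of all genes) and 2 above (Masp1 and F5; 14.3%), 5 of the 10 being clotting factors. At month 1 it was 3 below (Masp2, Kng1 and F7; 9.92%) and 1 above (F11; 8.71%). At month 9 there were 5 below (8.77%) and 0 above (9.4%), and at month 12 1 below (Masp2; 7.78%) and 2 above (Klkb1 and F13b; 7.74%).

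**Figure D2:**
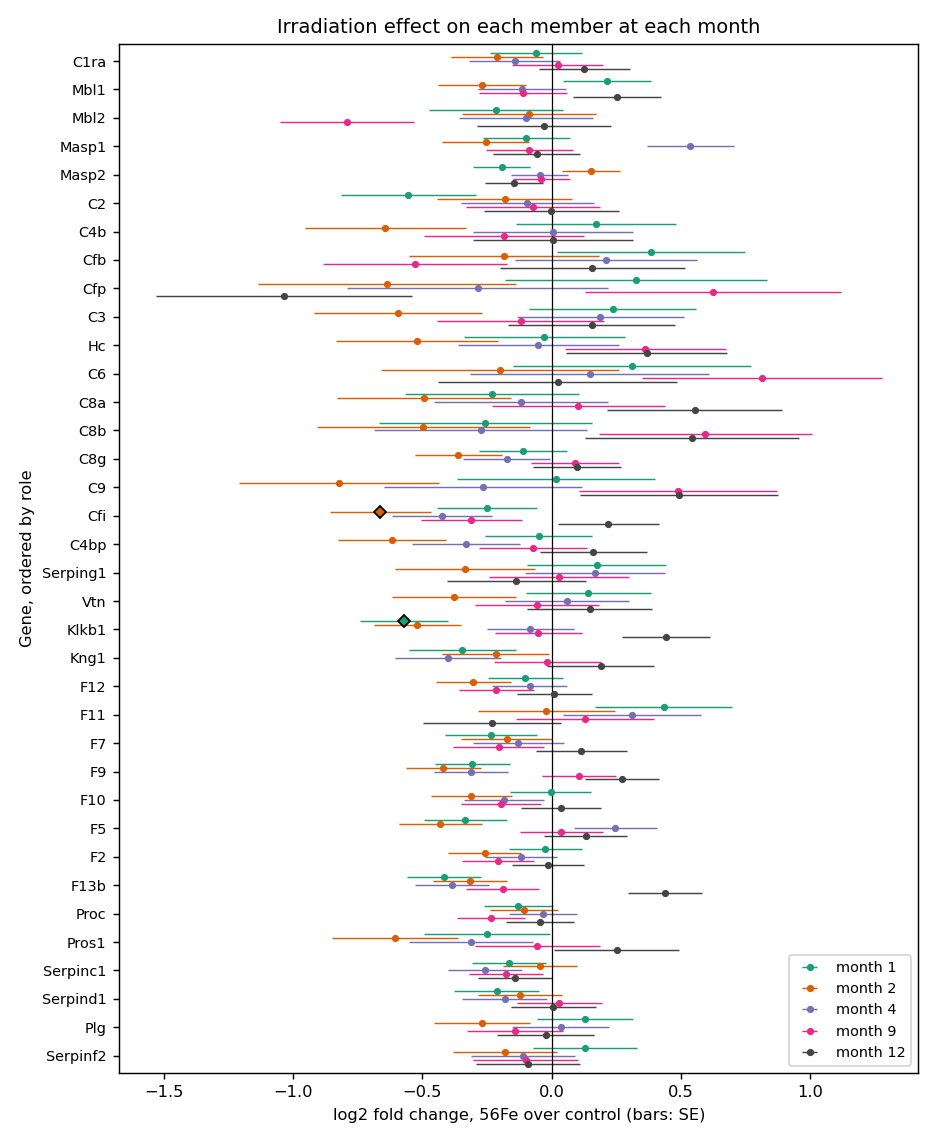
Log2 fold change of each member, irradiated over control, at each of 5 months, with bars of 1 SE, members in order of role and a diamond for each called member and month. At month 2, 35 of 36 members lie left of 0, and at month 12, 24 lie right of it.

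Most genes of several other lists also had negative values at month 2. All 13 hepatocyte markers had negative values (median -0.23; summed level 75410 to 82910 CPM in irradiated and 88920 to 99070 CPM in control livers), with 0 called. Of 25 acute phase genes 24 were negative (median -1.26; 7846 to 9230 CPM in irradiated and 13310 to 25210 CPM in control livers), with 0 called. The acute phase gene Saa1, named after its values were seen, had 17.8, 21.8 and 22.1 CPM in irradiated livers, against 93.7, 1069 and 447 CPM in control livers. Neutrophil markers were negative for 11 of 11 (median -2) and macrophage markers for 12 of 12 (median -0.75), again with 0 called. Lymphocyte markers had positive values for 6 of 8 (median 0.28), with 1 called higher. The part of these groups, of the Gm26917 share and of the clock genes in the members' values was not tested.

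Among the contact factors, which start clotting on charged surfaces and release bradykinin, Klkb1 fell at month 1. Klkb1 encodes prekallikrein, the precursor of plasma kallikrein. At month 1 it had 104, 142 and 79.4 CPM in irradiated livers, against 174, 188 and 122 CPM in control livers. The 2 lowest values were irradiated and the 2 highest control, but irradiated replicate 2 lay above control replicate 3, so the groups overlapped. The log2 fold change was -0.57 ± 0.17 (edgeR adjusted p = 0.048). At month 2 the gene had 113, 153 and 126 CPM in irradiated livers, against 182, 201 and 179.6 CPM in control livers, with no overlap (-0.52 ± 0.17; edgeR adjusted p = 0.0714). At month 4 it had 307, 292 and 277 CPM in irradiated livers, against 322, 297 and 309.7 CPM in control livers. Month 9 gave 239.9, 281 and 291 CPM in irradiated livers, against 288, 232 and 322 CPM in control livers. At both months the groups overlapped and the log2 fold change was within 1 SE of 0 (-0.08 ± 0.17 and -0.05 ± 0.17). At month 12 it had 274, 263 and 255 CPM in irradiated livers, against 208, 188 and 186 CPM in control livers, so all 3 irradiated livers were above the controls (0.44 ± 0.17; edgeR adjusted p = 0.262). The month 1 call was lost when any 1 of 4 libraries was left out (irradiated replicate 1 or 3, control replicate 1 or 2; adjusted p 0.222 to 0.441) and with Gm26917 as a covariate (0.708). Hepatocyte markers at month 1 summed to 40430 to 70700 CPM in irradiated and 59740 to 83500 CPM in control livers, with 9 of 13 negative and 1 called lower, and 23 of 25 acute phase genes were positive with 0 called. Their part in the Klkb1 result was not tested.

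The other contact factors gave no calls. F11 encodes factor XI, a relative of prekallikrein. At month 1 F11 had 165, 169 and 143 CPM in irradiated livers, against 98.8, 130.1 and 124 CPM in control livers, so that it was the 1 member whose irradiated livers all lay above the controls (0.43 ± 0.265; edgeR adjusted p = 0.453). At month 2 its groups overlapped, with 99.6, 112 and 78 CPM in irradiated livers, against 113, 80.1 and 101 CPM in control livers. Kng1 was lower in irradiated livers without overlap at months 1 and 4. At month 1 it had 1459, 1602 and 1686 CPM in irradiated livers, against 2237, 2102 and 1691 CPM in control livers (-0.345 ± 0.21), with the nearest values almost equal. At month 4 Kng1 had 1908, 2093 and 1933 CPM in irradiated livers, against 2704, 2494 and 2631 CPM in control livers, a wider gap (-0.40 ± 0.21; edgeR adjusted p = 0.294). F12, factor XII, which activates prekallikrein, was below the controls without overlap at month 2 alone. At that month it had 379, 333 and 346 CPM in irradiated livers, against 419, 474 and 413 CPM in control livers (-0.30 ± 0.145; edgeR adjusted p = 0.219). Averaged over months its value was -0.14 ± 0.065 (edgeR adjusted p = 0.203).

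For the clotting factors the values were below control for all 6 genes at months 1 and 2 and for 5 of 6 at month 4, with 0 called. F13b encodes the carrier subunit of factor XIII, the enzyme that crosslinks fibrin. At month 1 F13b had 124, 154 and 88 CPM in irradiated livers, against 167, 184 and 137 CPM in control livers (-0.42 ± 0.14; edgeR adjusted p = 0.0985). At month 2 it had 139.8, 149 and 141 CPM in irradiated livers, against 182, 165 and 186 CPM in control livers, and the groups were apart. At month 4 they were again apart, with 253, 271 and 258 CPM in irradiated livers, against 345, 339 and 337 CPM in control livers (-0.385 ± 0.14; edgeR adjusted p = 0.127). Month 9 gave 249.5, 287 and 285 CPM in irradiated livers, against 317, 291 and 328 CPM in control livers. The order was the other way round at month 12, where F13b had 272, 259 and 259.5 CPM in irradiated livers, against 215, 184 and 184 CPM in control livers (0.44 ± 0.14; edgeR adjusted p = 0.183). F13b thus had its irradiated livers wholly below the controls at months 2, 4 and 9 and wholly above them at month 12.

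F9 encodes factor IX, the protease lacking in haemophilia B. At month 1 F9 had 111, 139 and 123 CPM in irradiated livers, against 172, 170.3 and 119 CPM in control livers. At month 2 it had 134, 145 and 166 CPM in irradiated livers, against 203, 191 and 200.2 CPM in control livers (-0.42 ± 0.14; edgeR adjusted p = 0.0866). Month 4 gave 211, 243 and 237 CPM in irradiated livers, against 275, 266 and 316 CPM in control livers. The groups overlapped at month 1, by the third control liver, and were apart at months 2 and 4. At month 9 F9 had 257, 272 and 286 CPM in irradiated livers, against 257, 237 and 263 CPM in control livers. At month 12 it had 252, 333 and 239.7 CPM in irradiated livers, against 245, 235 and 202 CPM in control livers (0.27 ± 0.14; edgeR adjusted p = 0.403). The irradiated livers of these late months were the higher on average, with overlap.

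**Figure D3:**
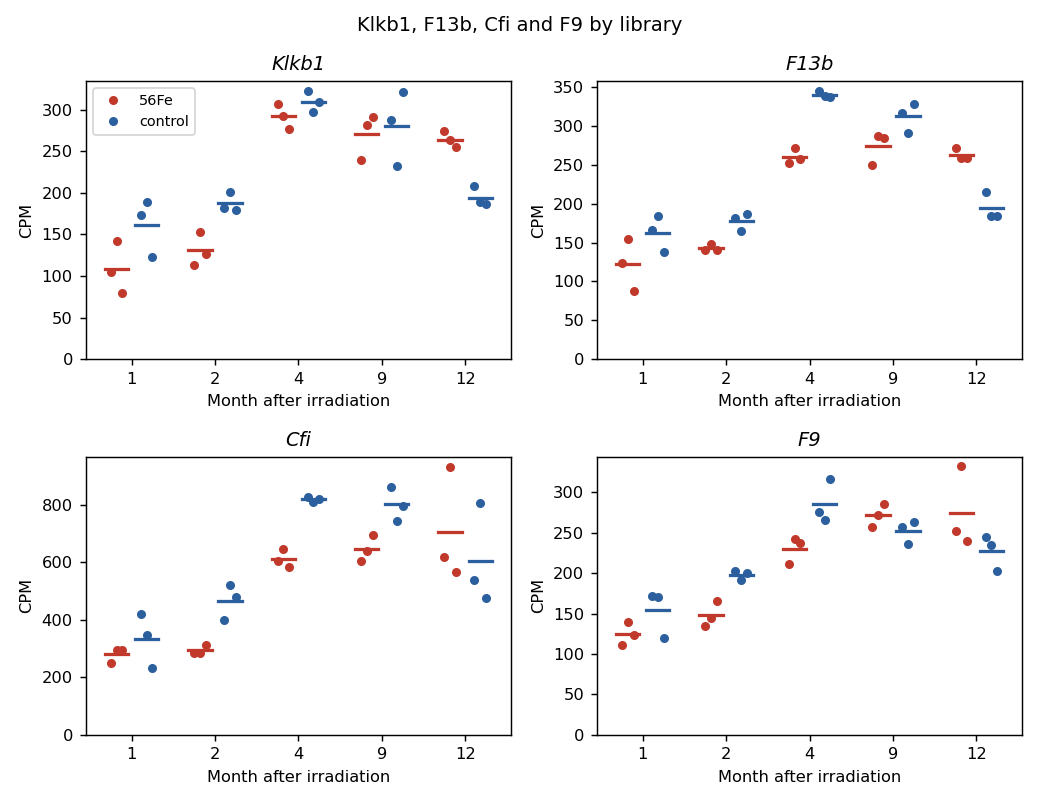
CPM of Klkb1, F13b, Cfi and F9 in each of 30 livers by month, irradiated left of control, with a bar for each group mean. For F13b the irradiated livers lie below the controls at month 4 (253 to 271 against 337 to 345 CPM) and above them at month 12 (259 to 272 against 184 to 215 CPM).

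F5 encodes factor V, the cofactor of factor X. At month 1 F5 had 448, 495 and 391 CPM in irradiated livers, against 634, 629 and 419 CPM in control livers. At month 2 it had 463, 510.2 and 507 CPM in irradiated livers, against 616, 696 and 680.4 CPM in control livers (-0.43 ± 0.16; edgeR adjusted p = 0.113). At month 4 it had 936, 915 and 864 CPM in irradiated livers, against 799.5, 635 and 854 CPM in control livers (0.25 ± 0.16; edgeR adjusted p = 0.424). The groups were thus apart at months 2 and 4 in opposite directions, and they overlapped at month 1. Month 9 gave 753, 801 and 895 CPM in irradiated livers, against 843, 659 and 882 CPM in control livers. Month 12 gave 830, 1073 and 857 CPM in irradiated livers, against 802, 906 and 809 CPM in control livers. At both of these months the groups overlapped.

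F2 encodes prothrombin, the precursor of thrombin. At month 2 F2 had 1281, 1120 and 1315 CPM in irradiated livers, against 1479, 1490 and 1478 CPM in control livers (-0.26 ± 0.14). Month 4 gave 1722, 1822 and 1677 CPM in irradiated livers, against 1845, 1893 and 1925 CPM in control livers (-0.12 ± 0.14). Its irradiated livers lay below the controls at both months, by small margins. At month 1 F2 had 976, 1121 and 1010 CPM in irradiated livers, against 1179, 1109 and 873 CPM in control livers. Month 9 gave 1831, 1665 and 1577 CPM in irradiated livers, against 2084, 1729 and 2049 CPM in control livers. Month 12 gave 1591, 1812 and 1430 CPM in irradiated livers, against 1624, 1746 and 1513 CPM in control livers. These 3 months overlapped. F10 (factor X, which cleaves prothrombin) had log2 fold changes between -0.31 and 0.04 over the 5 months. F7 (factor VII, which starts clotting with tissue factor) had values between -0.235 and 0.11.

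Among the anticoagulants, Serpinc1 (antithrombin, the main inhibitor of thrombin) had negative values at every month. At month 4 Serpinc1 had 1859, 2010 and 1907 CPM in irradiated livers, against 2240, 2278 and 2387 CPM in control livers, and the groups were apart (-0.26 ± 0.14; edgeR adjusted p = 0.332). At month 9 it had 1968, 1950 and 1767 CPM in irradiated livers, against 2244, 1985 and 2194 CPM in control livers, also apart. Irradiated livers ranged over 1164 to 1918 CPM and control livers over 1410 to 2001 CPM at months 1, 2 and 12. Averaged over months the value was -0.16 ± 0.06 (edgeR adjusted p = 0.138). Pros1 encodes protein S, the cofactor of activated protein C. At month 2 Pros1 had 44.8, 47.5 and 61.7 CPM in irradiated livers, against 67.5, 89 and 77.8 CPM in control livers, without overlap (-0.61 ± 0.24; edgeR adjusted p = 0.144). For Proc (protein C) the lowest value was -0.23 ± 0.13 at month 9, and for Serpind1 (heparin cofactor II) it was -0.21 ± 0.16 at month 1. The fibrinolysis genes Plg and Serpinf2 (alpha-2 antiplasmin, the inhibitor of plasmin) had log2 fold changes between -0.27 and 0.13 over the 5 months.

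Among the complement genes 1 member, Cfi, was called, and it was lower. Cfi encodes factor I, the protease that inactivates C3b and C4b. At month 2 Cfi had 284, 286 and 313 CPM in irradiated livers, against 398, 520.4 and 479.9 CPM in control livers. Every irradiated liver was below every control (-0.66 ± 0.195; edgeR adjusted p = 0.0474). At month 4 it had 603, 645 and 584 CPM in irradiated livers, against 828, 810.2 and 819.6 CPM in control livers, again apart (-0.425 ± 0.19; edgeR adjusted p = 0.223). Month 9 gave 606, 639 and 693 CPM in irradiated livers, against 862, 744 and 796 CPM in control livers, the third month without overlap. The groups overlapped at the other months. At month 1 Cfi had 248, 295 and 294 CPM in irradiated livers, against 419, 346 and 231 CPM in control livers. At month 12 it had 619, 932 and 566 CPM in irradiated livers, against 537, 805 and 476 CPM in control livers. Averaged over months Cfi had -0.29 ± 0.09 (edgeR adjusted p = 0.0498). The month 2 call was lost when any 1 of its 6 libraries was left out (adjusted p 0.0564 to 0.213), and the averaged one without any 1 of 26 of the 30 libraries (0.0506 to 0.101). With Gm26917 as a covariate neither call was made, and both values were still negative (-0.57 at month 2, edgeR adjusted p = 0.219; -0.23 averaged, 0.327).

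Its cofactor C4bp, the C4b-binding protein, was below control without overlap at the same 3 months. At month 2 C4bp had 311, 363 and 309 CPM in irradiated livers, against 458, 546 and 503 CPM in control livers (-0.62 ± 0.21; edgeR adjusted p = 0.0816). Month 4 gave 625, 684 and 644 CPM in irradiated livers, against 784, 809 and 862 CPM in control livers. At month 9, with a gap of few CPM, it had 744, 757 and 763 CPM in irradiated livers, against 788, 783 and 809 CPM in control livers. The other regulators, Serping1 (C1 inhibitor, which also blocks kallikrein) and Vtn, lay below control without overlap at month 2 alone. Serping1 had 446, 405 and 471 CPM in irradiated livers, against 508, 592 and 569 CPM in control livers (-0.34 ± 0.27). Vtn had 1895, 1662 and 1886 CPM in irradiated livers, against 2261, 2675 and 2137 CPM in control livers (-0.38 ± 0.24).

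Of the 9 genes that start complement, 0 were called. Mbl2, the mannose-binding lectin C of mice, stood out at month 9, where it had 174, 351 and 212 CPM in irradiated livers, against 395, 379 and 503 CPM in control livers. No irradiated liver reached the lowest control (-0.79 ± 0.26; edgeR adjusted p = 0.112). Without the libraries numbered 2 of that month it was called lower (-1.23; adjusted p = 0.018), as it was without irradiated replicate 2 alone (-1.15; 0.00679). Irradiated livers ranged over 111 to 339 CPM and control livers over 144 to 353 CPM at the other months. Masp1 encodes a protease carried by these lectins. At month 4 Masp1 had 143, 147 and 125 CPM in irradiated livers, against 92, 79.7 and 114 CPM in control livers. All irradiated livers were above the controls (0.54 ± 0.17; edgeR adjusted p = 0.0684). At month 1 it had 110.5, 130.1 and 129 CPM in irradiated livers, against 144, 148 and 104 CPM in control livers. Month 2 gave 108, 124 and 102 CPM in irradiated livers, against 136, 120 and 142 CPM in control livers. The groups overlapped at both. Month 9 gave 99.2, 101 and 104 CPM in irradiated livers, against 123, 80.3 and 119.7 CPM in control livers. Month 12 gave 113, 168 and 111 CPM in irradiated livers, against 129, 140 and 138 CPM in control livers. Month 4 was thus the 1 month at which the groups of Masp1 were apart.

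Masp2, which cleaves C4 and C2, varied least of all members, its group means spanning 1.24-fold. At month 12 it had 118, 119 and 112 CPM in irradiated livers, against 129.8, 129 and 128 CPM in control livers (-0.15 ± 0.11), a gap of small size between groups of small spread. C4b encodes complement C4, and at month 2 it had 1275, 1084 and 1166 CPM in irradiated livers, against 1527, 2204 and 1773 CPM in control livers, without overlap (-0.64 ± 0.31; edgeR adjusted p = 0.227). C2 and Cfb, the protease parts of the classical and alternative convertases, were low, and their groups overlapped at every month. Cfp stabilises the alternative convertase and is made mainly by myeloid cells. At month 12 Cfp had 17, 15.4 and 10.04 CPM in irradiated livers, against 9.29, 64.8 and 13.1 CPM in control livers. Its value of -1.035 ± 0.50 (edgeR adjusted p = 0.37) rested on control replicate 2 and became 0.32 without it. C1ra, the mouse gene for the C1r protease, had log2 fold changes between -0.21 and 0.13, and Mbl1 (mannose-binding lectin A) between -0.27 and 0.25.

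C3 and most terminal components had some of the widest replicate spreads. At month 12 C3 had 9124, 20700 and 6220 CPM in irradiated livers, against 9126, 15200 and 8041 CPM in control livers. Replicate 2 was the highest in both arms. At month 12 the acute phase gene Saa1 had 36.1, 4303 and 24.4 CPM in irradiated livers, against 27.2, 1938 and 19.6 CPM in control livers, with the same replicates highest. Replicate 2 at month 12 lay above both other libraries of its group for 26 members in both arms, among them C4b, Hc (C5), C6, C8a and C9. Such orderings, here and at month 9, were counted for members alone and not over all genes. They thus do not show a trait particular to the members. At month 9 replicate 2 was the lowest of its group for 20 members in both arms and the highest of it in both arms for 0. At that month C6, which begins the membrane attack complex on C5b, had 476, 129.7 and 472 CPM in irradiated livers, against 272, 102 and 238 CPM in control livers. C8b, a chain of C8, had 597, 205 and 618 CPM in irradiated livers, against 416, 146 and 377 CPM in control livers. For C9, the pore-forming subunit, the values were 772, 355 and 794 CPM in irradiated livers, against 567, 316 and 485 CPM in control livers. Replicate 2 was the lowest of its group for each of these 3 genes in both arms. Saa1 had 54.5, 15 and 68.9 CPM in irradiated livers, against 27.4, 39.3 and 19.3 CPM in control livers at month 9, where replicate 2 was lowest in the irradiated and highest in the control arm.

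None of the 6 terminal components was called at any month. At month 1 their log2 fold changes were negative for 4 and positive for 2 (C6 0.31 and C9 0.02), and at month 4 they were negative for 5 and positive for C6 (0.15). At month 2 all 6 were negative (-0.82 to -0.20), and 5 of them had the groups apart. At month 2 C9 had 299.9, 324 and 359 CPM in irradiated livers, against 619, 584 and 534 CPM in control livers (-0.82 ± 0.385; edgeR adjusted p = 0.215). C8g had 157, 175 and 162 CPM in irradiated livers, against 221, 224 and 189 CPM in control livers (-0.36 ± 0.17; edgeR adjusted p = 0.212). At months 9 and 12 all 6 were positive, between 0.09 and 0.81 and between 0.02 and 0.55, with overlap between the groups for each gene. Without the libraries numbered 2 the mean of C6 at month 12 was lower in irradiated (162.4 CPM) than in control livers (170.1 CPM), while the means of the other 5 at month 12 and of all 6 at month 9 were still higher in irradiated livers. At month 2 C3 had 6102, 5697 and 6547 CPM in irradiated livers, against 7889, 10460 and 9330 CPM in control livers (-0.59 ± 0.32). Its irradiated livers were all below the controls at that month, and its log2 fold changes at the other months lay between -0.12 and 0.24.

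**Figure D4:**
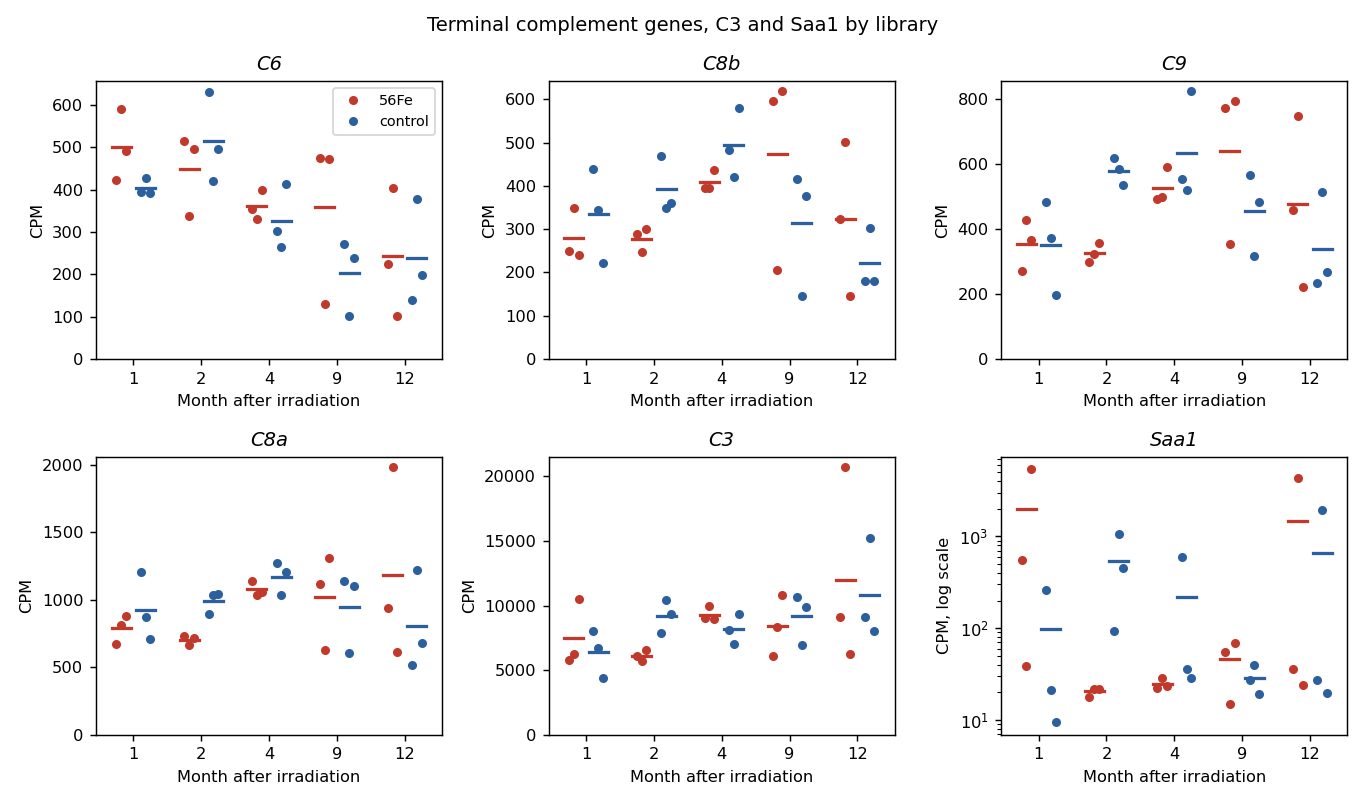
CPM of C6, C8b, C9, C8a, C3 and the acute phase gene Saa1 (log axis) in each of 30 livers by month, irradiated left of control, with a bar for each group mean. Replicate 2 of month 9 is low for C6 in both arms (130 and 102 CPM), and replicate 2 of month 12 is high for C3 (20700 and 15200 CPM) and for Saa1.

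Whether the irradiation effect differed between the 5 months was tested directly. F13b (edgeR adjusted p = 0.0221) and Klkb1 (0.0239) passed, 2 of 36 members against 11% of all genes. F9 followed at 0.0547, F5 at 0.104, Masp1 at 0.111 and Cfi at 0.16. For F13b the month 12 effect exceeded the month 4 effect by 0.825 ± 0.20 in log2 fold change (edgeR adjusted p = 0.0174; 5.37% of all genes were called, 2.15% higher and 3.22% lower), and it was the 1 member called. With months 4, 9 and 12 alone F13b still passed (0.0237; 7.98% of all genes), and Klkb1 did not (0.22). Without the libraries numbered 2 of months 9 and 12 neither passed (F13b 0.0755, Klkb1 0.0524) and Masp1 was the 1 member called, nor did they with Gm26917 as a covariate (F13b 0.622, Klkb1 0.309). Single libraries ended the F13b call in 4 of 30 cases (irradiated month 4 replicate 1, irradiated month 12 replicate 1, control month 12 replicates 2 and 3; 0.0512 to 0.077). They ended the Klkb1 call in 5 of 30 (irradiated month 2 replicates 1 and 3, irradiated month 12 replicate 1, control month 2 replicate 2, control month 12 replicate 3; 0.0578 to 0.0709).

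More members passed the tests of change over time within an arm than any test between the arms. Over the 5 months 17 members passed in irradiated livers (59% of all genes) and 17 in control livers (58.3%), both below the share of all genes. The 2 arms had 16 of these in common, 94.1% of each set. Serpind1 was called in the irradiated arm alone and Masp1 in the control arm alone, a difference that was not tested. The members called in both arms were 8 contact and clotting factors (Klkb1, F11, F12, F13b, F9, F5, F2 and F10), 3 anticoagulants (Pros1, Proc and Serpinc1) and 5 complement genes (Cfi, C4bp, C8g, Mbl2 and C1ra). Of 23 alternatives, the irradiated call of Serpinc1 was lost in 19 and that of Proc in 15, and the control call of F11 was lost in 12 and that of Masp1 in 11. Irradiated livers gave edgeR adjusted p = 1.68e-08 for Klkb1, 1.87e-08 for F13b, 6.28e-08 for F9 and 1.29e-07 for C8g. Control livers gave 1.45e-07 for F13b, 1.96e-06 for C8g, 6.21e-06 for Cfi and 3.18e-05 for F2 in the same test. The irradiated count was 11 without month 1 replicate 3, and the control count 27 without the libraries numbered 2 of months 9 and 12. With Gm26917 as a covariate the counts were 0 in irradiated and 2 (C8g and F2) in control livers. For these alternative fits the share of all genes called is not given. Their counts thus do not show whether the members moved more than other genes did.

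Most of these members were higher at months 4, 9 and 12 than earlier. Set against months 1 and 2, months 4, 9 and 12 were higher for 21 members and lower for 1 (F11) in irradiated livers (63.4% of all genes were called, 31.1% higher and 32.3% lower), and higher for 14 and lower for 2 (F11 and C6) in control livers (29.2% higher and 29.9% lower). Klkb1 averaged 276 CPM over the 9 later and 120 CPM over the 6 earlier irradiated livers, a ratio of 2.3, and 262 and 175 CPM in control livers, a ratio of 1.5. At month 1 C8g had 110.5, 160.1 and 103 CPM in irradiated livers, against 144, 152 and 107 CPM in control livers. Month 4 gave 278, 317 and 286 CPM in irradiated livers, against 318, 301 and 374 CPM in control livers. Both arms of C8g were thus higher at month 4 than at month 1 without overlap. Month 9 gave 424, 289 and 288 CPM in irradiated livers, against 334, 281 and 326 CPM in control livers. Month 12 gave 292, 229 and 238 CPM in irradiated livers, against 264, 226 and 219 CPM in control livers. The lowest control livers of month 12 reached the highest of month 2, so the earlier and later control livers of C8g overlapped.

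F11 ran the other way from its neighbour Klkb1. Over the later livers F11 averaged 76.7 CPM and over the earlier ones 128 CPM in the irradiated arm, a ratio of 0.6, and 71.8 and 108 CPM in the control arm, a ratio of 0.666. At month 4 F11 had 111, 92.7 and 89.6 CPM in irradiated livers, against 77, 65.1 and 94.3 CPM in control livers. At month 12 it had 53, 76.8 and 51.4 CPM in irradiated livers, against 42.4, 98.7 and 71.3 CPM in control livers. The ranges of earlier and later livers overlapped in both arms. Hepatocyte markers summed to 104000 to 127000 CPM in the later and 40430 to 82910 CPM in the earlier irradiated livers, and to 107900 to 132400 CPM and 59740 to 99070 CPM in control livers of the same months. The same split of months separates the libraries by their Gm26917 share, so time and library composition cannot be told apart in this comparison. With months 4, 9 and 12 alone edgeR called 0 members in irradiated livers (2.93% of all genes; 4 members at an unadjusted p under 0.05) and 2 in control livers (F13b and Klkb1; 20.2%). Between months 1 and 2 it called 0 in irradiated livers (0.00508%; 4 at an unadjusted p under 0.05) and 3, all higher at month 2, in control livers (C8g, F2 and F10; 9.8%, 5.75% higher and 4.05% lower).

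**Figure D5:**
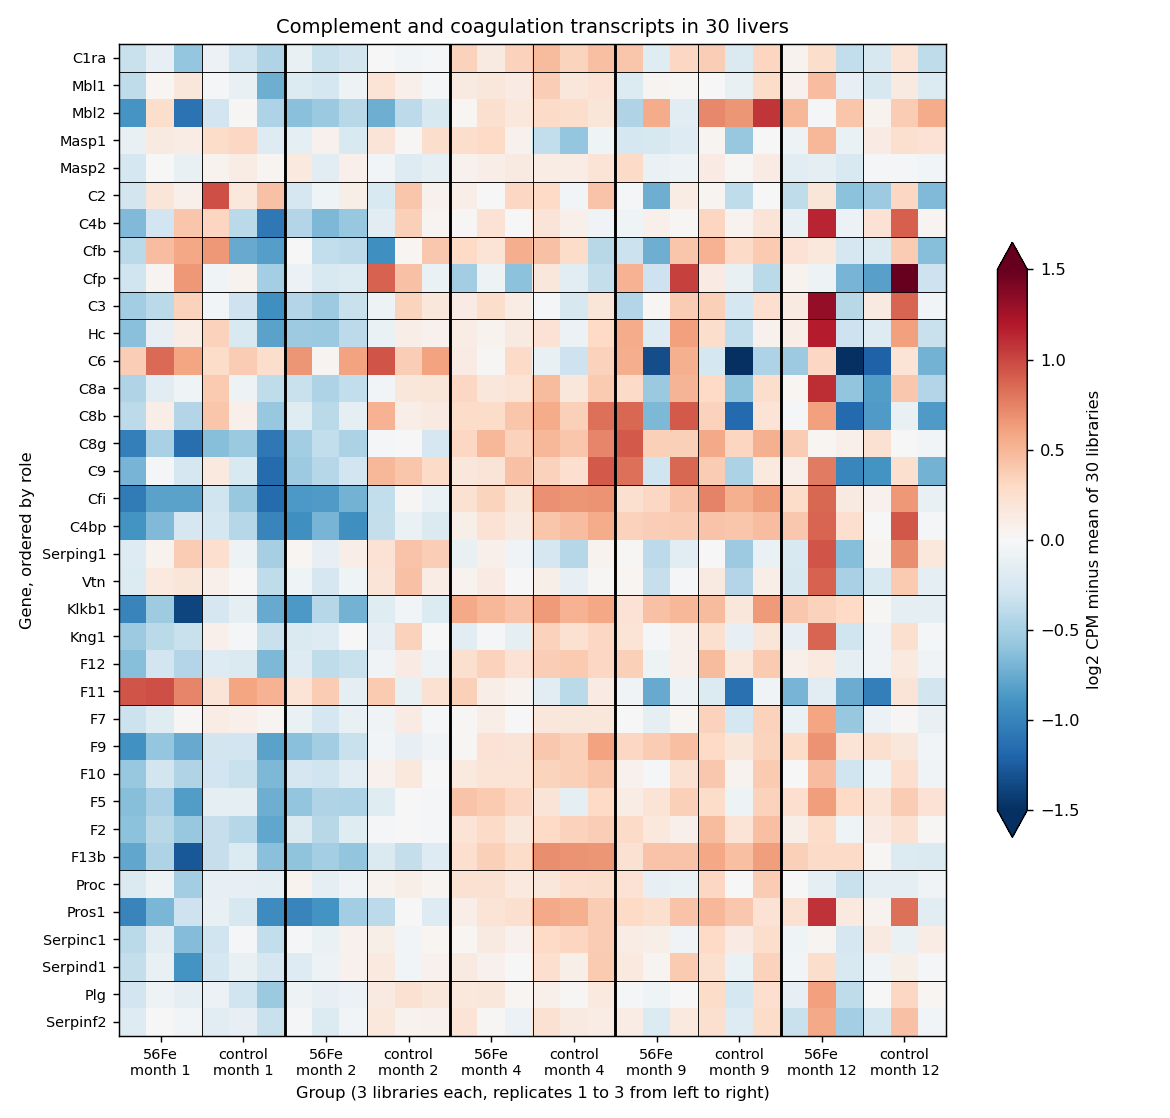
Log2 level of each of the 36 members in each of 30 livers relative to the mean of that gene, genes in order of role and groups in blocks of 3 libraries, irradiated left of control at each month. Many clotting factors and regulators are low in the 12 livers of months 1 and 2, and replicate 2 of months 9 and 12 stands apart in both arms for C6, C8a, C8b and C9.

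Between months 12 and 4, 5 members changed in control livers and 0 were called in irradiated livers. The Gm26917 share was 1.33% to 2.04% at month 12 and 0.469% to 0.508% at month 4 in these control livers. The 5 in control livers (22.2% of all genes) were 4 lower at month 12 (9.5%) and 1 higher (12.6%). F13b had 215, 184 and 184 CPM at month 12 and 345, 339 and 337 CPM at month 4 (-0.81 ± 0.14; edgeR adjusted p = 0.000301). Klkb1 had 208, 188 and 186 CPM at month 12 and 322, 297 and 309.7 CPM at month 4 (-0.67 ± 0.17; edgeR adjusted p = 0.00548). Neither gene overlapped between these months, and both calls held without any 1 of the 6 libraries. With Gm26917 as a covariate neither was called (Klkb1 -0.14, edgeR adjusted p = 0.928; F13b -0.57, 0.59). C1ra had 128, 173 and 115 CPM at month 12 and 209.6, 190.2 and 205 CPM at month 4 (-0.54 ± 0.18; edgeR adjusted p = 0.0293). C8g was also lower (-0.485 ± 0.17; edgeR adjusted p = 0.0394) and Masp1 higher (0.51 ± 0.17; edgeR adjusted p = 0.028). These last 3 calls each held without 2 of the 6 libraries and were lost without the others.

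In irradiated livers edgeR called 0 members (0.0864% of all genes, 0.0559% higher and 0.0305% lower; 3 members at an unadjusted p under 0.05), as did limma voom and DESeq2. F13b had 272, 259 and 259.5 CPM at month 12 and 253, 271 and 258 CPM at month 4 in these livers (0.015 ± 0.14). Klkb1 had a value of -0.15 ± 0.17. The difference between the arms passed for F13b (above) and not for Klkb1 (0.525 ± 0.24; edgeR adjusted p = 0.203), C1ra (0.601), C8g (0.576) or Masp1 (0.138). The smallest p-values in the irradiated arm belonged to Proc (-0.35 ± 0.13), F11 (-0.69 ± 0.27) and Masp2 (-0.27 ± 0.11), with edgeR adjusted p = 0.358, 0.381 and 0.414.

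Without the month 12 libraries numbered 2, control livers gave 15 calls, all lower at month 12, and Masp1 was lost. The count in control livers was 2 without month 4 replicate 1 or without month 12 replicate 3, and 3 without month 4 replicate 3. It was 0 with Gm26917 as a covariate. The counts in these fits are of members alone, without the share of all genes called in each. They do not show whether the members changed more than other genes did. Of the 13 hepatocyte markers 9 had negative values at month 12 against month 4 in control livers (median -0.255). Of these, 3 were called lower (9.5% of all genes were). The summed level of the 13 was 110800 to 128900 CPM at month 12 and 113700 to 132400 CPM at month 4. All 25 acute phase genes had positive values there (median 0.96; 11110 to 55050 CPM at month 12 and 11960 to 18810 CPM at month 4), with 2 called higher (12.6% of all genes). Their part in the members' values was not tested.

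Genes of the same cascades outside the 36 were counted in the same way. Of 29 other complement genes tested, edgeR called 0 at month 1, 1 at month 2 and 1 at month 4, both lower, and 0 at months 9 and 12, with negative values for 25 of 29 at month 2 (median -0.41). Colec10, a liver collectin of the lectin pathway, was lower at month 2, when it had 19, 25.3 and 22.1 CPM in irradiated livers, against 27, 35.6 and 34.9 CPM in control livers. Its groups did not overlap (-0.56 ± 0.165; edgeR adjusted p = 0.0492). Averaged over months Colec10 (-0.28 ± 0.07) and its partner Colec11 (-0.28 ± 0.08) were the 2 called. Cr1l, a membrane regulator of C3 and C4 in rodents, was the one called at month 4. At that month Cr1l had 49.5, 48.7 and 48.3 CPM in irradiated livers, against 64.8, 65.2 and 67.2 CPM in control livers (-0.43 ± 0.09; edgeR adjusted p = 0.0106).

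Of 30 other coagulation and fibrinolysis genes, 0 were called at month 1, 2 at month 2 and 1 at month 4, all lower, and 0 at months 9 and 12. Values were negative for 23 of 30 at months 2 and 4 (medians -0.31 and -0.185). Mcfd2, which with Lman1 forms the receptor that carries factors V and VIII out of the endoplasmic reticulum, was the one called at both months. At month 2 Mcfd2 had 98.8, 109 and 95.3 CPM in irradiated livers, against 163, 151 and 144 CPM in control livers (-0.60 ± 0.15; edgeR adjusted p = 0.0293). At month 4 it had 211, 244 and 269.8 CPM in irradiated livers, against 335, 358 and 403 CPM in control livers (-0.60 ± 0.15; edgeR adjusted p = 0.0291). Irradiated and control livers were well apart at both. Its irradiation effect differed between months (edgeR adjusted p = 0.00895). Thbd encodes thrombomodulin, the endothelial receptor that turns thrombin towards protein C. At month 2 Thbd had 6.99, 6.82 and 7.48 CPM in irradiated livers, against 10.8, 19.7 and 13.8 CPM in control livers (-1.06 ± 0.31; edgeR adjusted p = 0.0473).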

How the data were processed

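As deposited by the authors, the table holds unnormalized read counts for Ensembl genes in 30 livers. Per the series' design text, RNA was isolated with RNAqueous from 2 cryotome slices of each frozen lobe, depleted of ribosomal RNA with Ribo-Zero, made into TruSeq libraries and sequenced as paired reads. Reads were aligned to GRCm38 with STAR 2.5.3a and counted by its GeneCounts option on Gencode M14, per the submitters' processing notes. Which strand column was kept is not stated. Symbols came from Gencode M21, which matched 51633 of 51826 identifiers, and the 193 others held at most 0.0222% of a library. All 30 pairs of replicates differed by more than sampling noise (chi-square per gene of at least 8.596).

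The counts were filtered with filterByExpr (minimum count 10, total 15), scaled by TMM and fitted in edgeR 4.0.16 (R 4.3.3) with 1 coefficient per group and robust quasi-likelihood dispersion. Contrasts were irradiated minus control at each month and averaged over 5 months, the difference of that effect between months, the change over months in each arm, and month 12 minus month 4. P-values were adjusted by Benjamini-Hochberg over 19685 genes, and calls were made under 0.05. At months 4 and 12 same-numbered libraries of the arms deviated together (r 0.103 to 0.403), though replicate 3 of month 12 correlated better with another number (0.303 against 0.228). The main fit did not pair libraries. A replicate block within each of the 5 months was run as an alternative and left 0 members called at months 4 and 12. Alternatives were RLE and upper quartile factors, no filter, log2 CPM of Gm26917 as a covariate, a replicate block, limma 3.58.1 voom, DESeq2 1.42.0 and each library left out in turn. The subsets of months, and the fits without the libraries numbered 2, were added after the values were seen. The members and lists were chosen with earlier results of these data known. Every member is accounted for. Called members are named, or the 3 with the smallest p where none was called, and values per library are given for members called at a month or with the 6 smallest adjusted p-values in the averaged contrast or the test between months. Values per library of F11, Kng1, Pros1, C4bp, Serping1, Vtn, C4b, Masp2, Cfp, C1ra, C3, C6, C8b and C9 were added after they had been seen.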

Additional observations from a re-analysis of the deposited data

Results flagged for a closer look

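Klkb1 (edgeR adjusted p = 0.0239) and F13b (edgeR adjusted p = 0.0221) were the 2 members whose irradiation effect differed between months by a direct test. For Klkb1 the log2 fold change was negative at months 1 and 2 (-0.57 and -0.52), near 0 at months 4 and 9 (-0.08 and -0.05) and positive at month 12 (0.44). For F13b it was negative at months 1, 2, 4 and 9 (-0.42, -0.31, -0.385 and -0.19) and positive at month 12 (0.44). The 3 irradiated livers of month 12 lay above the 3 controls for both genes, and those controls were also lower than the controls of month 4. The Gm26917 share was higher in irradiated livers at months 1, 2 and 4 and lower at month 12 (0.759% to 1.04% in irradiated and 1.33% to 2.04% in control livers). With Gm26917 as a covariate neither gene was called. As its CPM were apart between the arms at months 1, 4 and 12, that fit cannot tell its part from that of irradiation. Its part in both results was not tested in any other way.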

How the results depend on the processing

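Which members were called depended on the processing, and effect sizes moved as well. For Klkb1 at month 1 the log2 fold change was -0.57 in the main fit, -0.32 with the Gm26917 covariate and -0.63 with limma voom. At month 1 the 1 call (Klkb1) became 0 with RLE factors, upper quartile factors or the Gm26917 covariate, 2 with the replicate block or DESeq2, and 4 with limma voom. At month 2 the 1 call (Cfi) became 0 with RLE factors or the Gm26917 covariate, 4 with the replicate block, 9 with limma voom and 2 with DESeq2, all lower. At month 4 the 0 calls became 1 with upper quartile factors, 3 with limma voom and 1 with DESeq2, and at month 9 they became 1 (Mbl2) with the replicate block or without the libraries numbered 2. Month 12 kept 0 calls under every alternative run. Averaged over months the 1 call became 0 with RLE factors, upper quartile factors or the Gm26917 covariate, 2 with the replicate block, DESeq2 or without the libraries numbered 2, and 6 with limma voom. For the difference between months the 2 calls became 4 with upper quartile factors or DESeq2, 5 with the replicate block, 7 with limma voom, 0 with the Gm26917 covariate, and 1 with month 12 minus month 4, with months 4, 9 and 12 alone or without the libraries numbered 2. The cause of these changes was not tested. The counts in this section are of members alone, without the share of all genes called under each alternative. They do not show whether the members changed more than other genes did.

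For change over months the 17 calls in irradiated livers became 0 with the Gm26917 covariate, with months 4, 9 and 12 alone or with month 2 against month 1. The 17 in control livers became 2 with the Gm26917 covariate or with months 4, 9 and 12 alone, 3 with month 2 against month 1, and 27 without the libraries numbered 2. Between months 12 and 4 the 5 calls in control livers became 0 with the Gm26917 covariate, 14 with limma voom, 11 with DESeq2 and 15 without the libraries numbered 2. The replicate block left the counts over months at 17 in irradiated and 16 in control livers, and at 5 between months 12 and 4 in control livers. Over all 15 same-numbered pairs of the 5 months r ranged from -0.391 to 0.403, and 9 correlated best with their own number.

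Leaving out each library in turn gave 0 to 4 calls at month 1, 0 at months 2, 4 and 12, 0 to 1 at month 9, 0 to 2 averaged over months and 0 to 4 for the difference between months. At month 1 the count was 4 without control replicate 3 (Klkb1, F9, F5 and F13b) and 2 without irradiated replicate 2, and for the difference between months it was 4 without control month 1 replicate 3. It gave 11 to 18 and 15 to 20 calls over months in irradiated and control livers, and 0 and 2 to 7 between months 12 and 4. Over single genes, 951 of 1157 alternatives kept direction and side of the threshold, 196 lost a call, 8 gained one and 2 reversed. Both were of Cfp, irradiation effect at month 12, at 0.323 without the libraries numbered 2 and 0.319 without control replicate 2, and leaving out single libraries gave -1.466 to 0.319. The 3 livers a group and the replicate spread, with a median over groups of up to 30.8% of the mean (Cfb), limit the precision.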

Other observations

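Nr1h4, the bile acid receptor, was lower at month 1 (-0.648) and when averaged over months (-0.263, edgeR adjusted p = 0.0414), and Nr3c1, the glucocorticoid receptor, was lower at month 1 (-0.459).

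Between months 12 and 4 in control livers, the complement genes Cr1l (-0.441), Cfhr2 (-0.784) and Colec10 (-0.535) were lower at month 12. Of the other coagulation genes 6 were called (22.2% of all genes were), 2 higher and 4 lower, the lower ones being Mcfd2 (-0.676), F8 (-0.589), Serpina1c (-1.098) and Lman1 (-0.555). Of the lists of other complement and coagulation genes, edgeR called 0 in irradiated livers between the same months.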
